A study of Mus musculus with 6 samples.

Results

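The 290 cells described here are resting mouse thymocytes that carried RNA of Dntt, the polymerase that adds untemplated bases at V(D)J joints, and no RNA of Il2ra or of the CD8 genes. They were chosen by their own UMIs (unique molecular identifiers, each counting 1 captured RNA molecule). Thymus barcodes first had to show 500 or more genes and 1000 or more UMIs, with mitochondrial RNA no higher than 20%. A cell was then taken when Dntt had at least 1 UMI, Il2ra, Cd8a and Cd8b1 had 0 UMIs, and the 6 cycling genes Top2a, Mki67, Birc5, Ccna2, Cdk1 and Ube2c summed to fewer than 5 UMIs. The rule took 290 of the 3702 filtered thymus cells, out of 11125 filtered cells in the 6 libraries of the series. Because these UMIs chose the members, the values of the 10 genes in the rule are given below as a description.

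The study asked how the inhibitory receptor PD-1, encoded by Pdcd1, shapes CD8 T cells in thymus, spleen and B16-OVA tumor. Both thymus libraries came from adult mice of more than 8 weeks, and in both groups Pdcd1 is flanked by loxP sites on a C57BL/6 background. The Pdcd1fl/fl group lacks Cre, and the Pdcd1 cKO group also carries an E8I CD8-Cre transgene, which acts in CD8 T cells once positive selection is past. Thymic cells were enriched with a CD8a+ T cell kit and sequenced with PIPseq, a droplet method, as 1 library per genotype with no replicate, so genotype, mouse and library preparation cannot be told apart. The members were chosen for 0 CD8 UMIs, and whether this Cre had acted in them was not tested.

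The library labelled Pdcd1fl/fl held 1067 barcodes and 6389966 UMIs, and all of its barcodes passed the filter with a median of 4361 UMIs. In the Pdcd1 cKO library, 2635 of 2674 barcodes passed with a median of 5417 UMIs, and its total was 19304377. The libraries shared 0 barcodes. Pdcd1 RNA went against the labels: the filtered cells of the Pdcd1fl/fl library held 12 Pdcd1 UMIs, or 1.88 CPM (counts per 10⁶ UMIs), and those of the Pdcd1 cKO library held 131, or 6.84 CPM. The libraries also differ in their mix of cells, with more cycling cells in the first, and the part of that mix in the Pdcd1 counts was not tested. Among the members, Pdcd1 had 1 UMI and 2 UMIs, too few for a comparison. The library names below are therefore those of the labels, and the loss of Pdcd1 was not tested here. The authors checked it in mice of this model at the protein level by flow cytometry, which these counts do not measure.

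Thymocytes that have not yet put CD4 or CD8 on their surface are called double negative. They rearrange the beta, gamma and delta T cell receptor genes with the Rag1 and Rag2 recombinase, and Dntt widens the variety of the joints. Notch signals from the thymic stroma hold them in the T lineage, and cells with a working beta chain pair it with the pre-TCR alpha chain (Ptcra), lose the IL-2 receptor alpha chain (Il2ra), divide and go on to express CD4 and CD8. The delta constant gene Trdc lies within the alpha locus and is deleted when the alpha chain is joined, while Cd24a, a surface glycoprotein, is high on immature thymocytes.

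The members made up 105 of 1067 filtered cells in the Pdcd1fl/fl library, or 9.84% (95% exact Clopper-Pearson interval 8.12 to 11.8), and 185 of 2635 in the Pdcd1 cKO library, or 7.02% (6.07 to 8.06). Intervals here and below cover counting error only. Cycling cells made up 44.4% of the first library and 21.3% of the second, and among resting cells alone the members were 17.7% (14.7 to 21.0) of 593 and 8.92% (7.72 to 10.2) of 2075. The size of the difference depended on the thresholds. With at most 1 CD8 UMI the shares were 16.8% and 10.1%, and with a cycling sum under 2 they were 4.97% and 4.74%. With every cell thinned to 1000 UMIs and the cycling threshold lowered from 5 to 1 they were 9.37% and 9.34%, and since both choices changed at once the part of depth was not told apart. Resting Il2ra-positive CD8-negative cells, the nearest class by the rule, went the other way at 7.78% and 11.7%. Of resting cells with Dntt and no CD8 UMI, 40% of 175 and 58.7% of 448 had Il2ra.

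**Figure D1:**
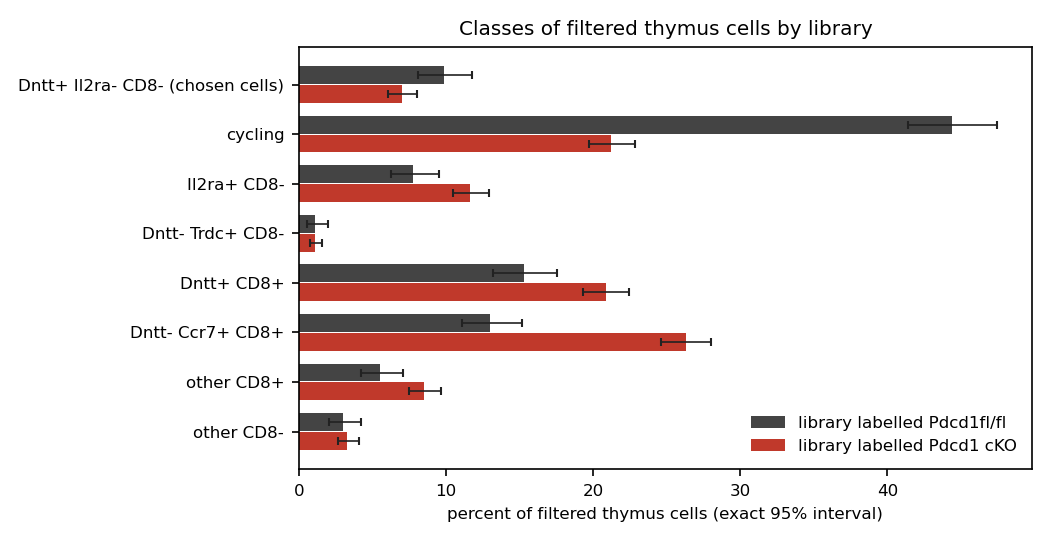
Percent of the filtered cells of each thymus library in each of 8 classes, with exact 95% intervals for counting error. Members were 9.84% of cells in the Pdcd1fl/fl library and 7.02% in the Pdcd1 cKO library, where cycling cells were fewer and Ccr7-positive CD8 cells more frequent. With cells thinned to 1000 UMIs and the cycling threshold lowered from 5 to 1, the member shares were 9.37% and 9.34%.

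Many cells lay close to the thresholds. Dntt stood at 1 UMI in 32 of 105 and 64 of 185 members, with a median of 2 UMIs and a highest count of 12 and 30. Just outside, 44 and 116 cells met every other condition with 0 Dntt UMIs, 35 and 94 failed only by 1 Il2ra UMI, and 74 and 82 failed only by 1 CD8 UMI. The cycling sum was 4 UMIs in 19 and 11 members and 5 UMIs in 11 and 10 cells just outside, while 26 and 58 members had a sum of 0. Members had a median of 3509 UMIs in the Pdcd1fl/fl library and 4814 in the Pdcd1 cKO library, so a gene at 0 UMIs in a cell may still be expressed there.

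The markers of the label were present. Cd24a stood at 340 CPM in the members of the Pdcd1fl/fl library against 278 in its other cells, and at 511 against 258 in the Pdcd1 cKO library. Trdc stood at 201 against 172 CPM and at 222 against 137. Both genes were above the other cells in both libraries without reaching 2-fold: log2 of members over other cells was 0.29 (exact interval 0.04 to 0.53) and 0.98 (0.85 to 1.12) for Cd24a, and 0.23 (-0.10 to 0.54) and 0.69 (0.49 to 0.89) for Trdc. The other cells are a mixture that includes immature and cycling thymocytes, and the part of that mixture in these ratios was not tested. The contrast with Ccr7-positive CD8 cells was wider: there Cd24a stood at 111 and 62.8 CPM and Trdc at 23.4 and 25.9 CPM. Dntt itself, which chose the cells, stood at 662 and 680 CPM in members.

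The label did not hold for every member. Grouping the members by all their genes gave 4 clusters, and the smallest, 34 cells, was led by Klra7, Klra9, Xcl1, Klrk1 and Ly6c2. Klra7, Klra9 and Klrk1 are killer cell lectin-like receptors, Xcl1 is a chemokine of cytotoxic lymphocytes, and Ly6c2 marks memory-like CD8 T cells. These 34 cells held Trac, the alpha constant gene, at 596 CPM against 36.6 in the other members, and Trdc at 18.6 against 240. Cd24a stood at 80.7 against 505 CPM and Hes1, a Notch target, at 87.0 against 773. Rag1 had 0 UMIs in them against 68.6 CPM in the rest. They carried the chemokine Ccl5 at 1845 against 92.2 CPM, the granule protein gene Nkg7 at 894 against 126 and the IL-15 receptor chain Il2rb at 273 against 12.2. Dntt was at exactly 1 UMI in 25 of the 34 cells (73.5%). Most UMIs of the leading genes came from the 25 cells of the Pdcd1 cKO library. The 9 cells of the Pdcd1fl/fl library held 5 Klra9, 0 Klrk1, 1 Xcl1 and 2 Il2rb UMIs. The 25 cells held 91, 29, 111 and 42. Ccl5 stood at 1401 CPM in the 9 cells and 1943 in the 25, Nkg7 at 1264 and 812, and Ccr7 at 513 and 137.

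Dntt UMIs were also common in cells with RNA of mature CD8 T cells. Among resting cells with a Ccr7 UMI and a CD8 UMI, Dntt had a UMI in 34.1% of 211 cells (median depth 3612 UMIs) and in 31.8% of 1016 cells (median depth 5536 UMIs). Of these Dntt-carrying cells, 40 of 72 and 229 of 323 had exactly 1 Dntt UMI and 19 and 41 had 3 or more. With at least 2 Ccr7 and at least 2 CD8 UMIs, the shares were 27% and 29.3%. Free RNA and expression were not told apart, and the Dntt condition alone did not set the members apart from those cells. The cluster took 9 of the 105 members (8.57%) in the Pdcd1fl/fl library and 25 of 185 (13.5%) in the Pdcd1 cKO library. Several results below changed without these 34 cells, and for some of them the values without these cells are given there. Contrasts with single classes were not rerun without them.

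**Figure D2:**
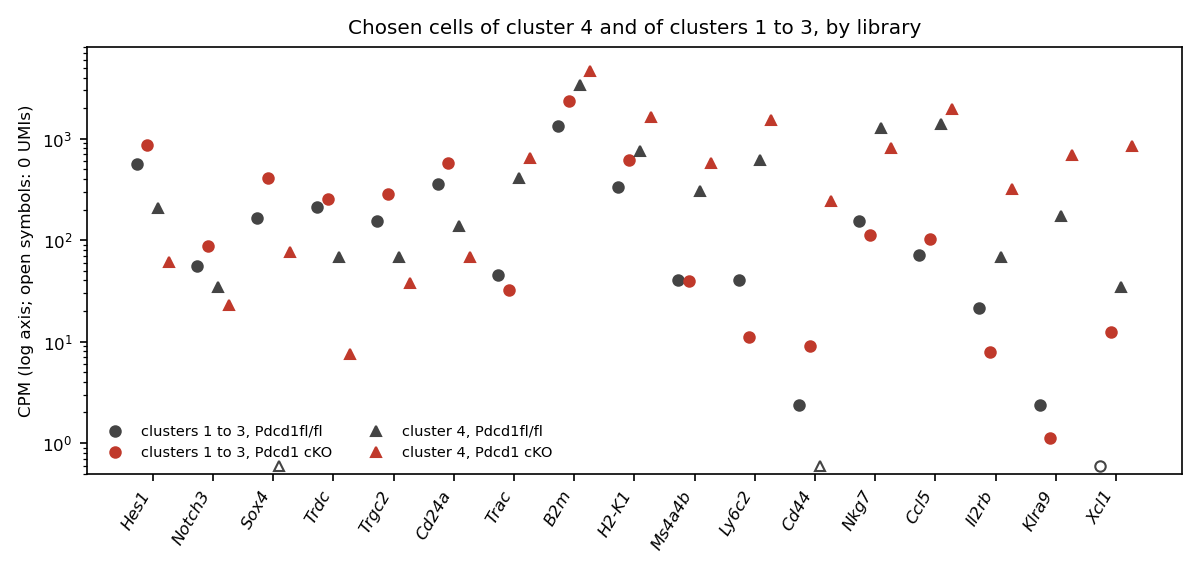
CPM of marker genes, on a log axis, in the members of the cluster led by Klra7, Klra9, Xcl1, Klrk1 and Ly6c2 (34 cells) and in the other 3 clusters, for each library; open symbols mark 0 UMIs. Trac, Ccl5, Nkg7 and Ly6c2 were higher in that cluster in both libraries, and Trdc, Hes1 and Cd24a were lower.

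The first comparison asked which RNAs set the members apart from the other 3412 filtered thymus cells, each library apart. Of 10380 genes with at least 100 UMIs, 57 (0.549%) were at least 2-fold higher in members in both libraries and 107 (1.03%) at least 2-fold lower, and the median gene stood at log2 -0.04 and 0.07. Rag1 and Notch3 were the members of the V(D)J and Notch lists among the higher genes. The lower genes were led by those of the rule and included genes of cell division, which the cycling condition of the rule selects against. Of the mature CD8 T cell list, S1pr1 was the only lower gene outside the rule. With at least 20 UMIs in the members of each library, a filter added after the data were seen, 8 higher and 5 lower genes were left of 3273, so most of the 57 rested on few molecules. The filter removes genes for being low in members, so the lower count falls by construction.

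V(D)J recombination genes had 1 of 11 tested members at least 2-fold higher in both libraries and none lower, with medians of -0.09 and 0.45 (0.57 and 0.66 against non-cycling cells alone). The list includes Dntt of the rule. The higher gene was Rag1, the catalytic subunit of the recombinase (chr2:101468603-101479877, minus strand, GRCm39). Rag1 stood at 71.5 CPM in members against 32.5 in other cells of the Pdcd1fl/fl library and at 56.5 against 26.4 in the Pdcd1 cKO library, log2 1.14 (0.55 to 1.68) and 1.10 (0.68 to 1.49). Its partner Rag2 had 0 and 2 UMIs, too few for a ratio. Among the end-joining genes, Xrcc6, which encodes Ku70, stood at 161 and 157 CPM and Lig4, the ligase, at 15.6 and 40.0 CPM.

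Pre-TCR and Notch genes had 1 of 11 tested members higher and none lower, with medians of 0.15 and 0.45 (-0.09 and 0.23 against non-cycling cells). Notch3, a Notch receptor of immature thymocytes (chr17:32339794-32385893, minus strand), stood at 53.6 CPM against 22.0 and at 79.9 against 26.5, log2 1.28 (0.59 to 1.92) and 1.59 (1.23 to 1.93). Hes1 stood at 543 against 427 CPM and at 765 against 347, and passed 2-fold in the Pdcd1 cKO library alone, at log2 0.35 and 1.14. Notch1 stood at 154 and 214 CPM and Ptcra at 24.6 and 30.2 CPM in members. In Il2ra-positive CD8-negative cells Ptcra stood higher, at 54.7 and 49.7 CPM. That contrast rests on few molecules and is given without an interval: members outside the cluster led by Klra7 held 10 and 30 Ptcra UMIs.

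RNA of the constant genes of both T cell receptor types was present, though the joined chains could not be read, as given below. The beta constant genes were the most abundant, with Trbc1 at 1187 and 1390 CPM and Trbc2 at 1853 and 1594 CPM, and their log2 over other cells lay between -0.20 and 0.11. The gamma constant gene Trgc1 stood at 210 and 190 CPM, Trgc2 at 148 and 254 CPM, and Trgc4 at 93.9 and 81.9 CPM. Trac stood lowest among the alpha and beta genes, at 69.3 and 110 CPM against 132 and 248 in other cells, log2 -0.93 (-1.49 to -0.41) and -1.17 (-1.45 to -0.90). Without the 34 cells of the cluster led by Klra7, Trac stood at 45.4 and 32.4 CPM.

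Cell by cell, 37 of 105 members had Trdc and no Trac UMI, 16 had Trac alone, 8 had both and 44 had neither in the Pdcd1fl/fl library. In the Pdcd1 cKO library, 74 of 185 had Trdc alone, 30 Trac alone, 14 both and 67 neither. Of the 24 and 44 members with a Trac UMI, 6 and 20 lay in the cluster led by Klra7. Ccr7-positive CD8 cells showed the reverse order, with 7 of 139 and 8 of 693 carrying Trdc alone and 91 and 526 carrying Trac alone. A gamma constant UMI was present in 68 and 127 members. Variable genes were scarce: delta variable genes had 1 UMI in each library, gamma variable genes 6 and 23, beta variable genes 1 and 17, and alpha variable genes 7 and 9, so the chain a cell had joined could not be read.

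Of the 16 gamma-delta genes listed, which include the constant genes, 9 were tested and 1 was higher in both libraries, with medians of 0.23 and 0.70. The 1 was Zbtb16, the PLZF factor of innate-like T cells, with 4 and 14 UMIs, of which 12 of the 14 lay in the cluster led by Klra7. Sox13, a factor of gamma-delta precursors, had 4 and 7 UMIs, Il17a and Ccr6 had 0 UMIs in both libraries, and Il23r had 0 and 1. Id3 had 11 and 40 UMIs and Maf, a factor of IL-17-producing cells, 3 and 43, both short of 2-fold.

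Early progenitor genes were scarce as well: 5 of 12 were tested, none passed 2-fold in both libraries, and the medians were -0.01 and 0.77. The stem cell factor receptor Kit stood at 8.94 CPM (4 UMIs) and 30.2 CPM (31 UMIs), and Spi1, Lyl1, Meis1 and Gata2 had 0 UMIs in both. The list of the Il2ra-positive DN3 stage had 2 of 11 higher, Rag1 and Notch3, and 1 lower, Il2ra of the rule, with medians of -0.03 and 0.45. T lineage transcription factors had 0 of 16 past 2-fold, with medians of -0.21 and 0.15. In that list Tcf12 stood at 257 and 265 CPM, Tcf7 at 378 and 246 CPM, and Gata3 at 55.9 and 63.4 CPM. CD3 and proximal signaling genes had 0 of 13 past 2-fold, with medians of -0.18 and -0.01 (-0.49 and -0.24 against non-cycling cells) and Cd3e at 277 and 302 CPM. So few genes passed 2-fold among all those tested that this count says little about the list.

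Genes of the double-positive stage other than CD8 were present in part. Of 11 tested, 1 was higher (Rag1) and 2 lower (Cd8a and Cd8b1 of the rule), with medians of 0.05 and 0.65. Against non-cycling cells these medians were -0.12 and 0.69. Cd4 had 0 UMIs in all members, and the Ccr7-positive CD8 cells held 0 and 14 Cd4 UMIs. Arpp21, an RNA-binding protein gene of cortical thymocytes, stood at 132 CPM against 127 and at 275 against 130, at log2 0.05 and 1.08.

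Of the selected and mature CD8 T cell genes, 3 of 16 were at least 2-fold lower in both libraries, with medians of -0.61 and -0.65 that include genes of the rule (-1.60 and -1.26 against non-cycling cells). Those 3 were Cd8a and Cd8b1 of the rule and S1pr1, the receptor that lets thymocytes leave, at log2 -1.07 (-2.09 to -0.21) and -1.54 (-2.07 to -1.05). The homing receptor Ccr7 stood at 80.5 CPM against 155 and at 51.7 against 308, log2 -0.95 and -2.57. Members outside the cluster led by Klra7 had Ccr7 at 50.2 and 39.1 CPM. Klf2, a factor that controls egress, stood at 98.4 against 149 and 92.6 against 195. Effector genes had 2 of 15 lower, Gzmm and Eomes, each on 4 or fewer UMIs per library, with medians of -0.66 and -0.28 (-1.45 and -0.90 against non-cycling cells). Without the cluster led by Klra7, the medians were -0.68 and -1.38 for the mature list and -0.78 and -1.59 for the effector list. Gzma, a granzyme, was abundant at 626 and 244 CPM, close to the 556 and 232 of other cells.

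Of the DNA replication genes outside the rule, 0 of 18 passed 2-fold in both libraries, with medians of 0.01 and -0.28, and Pcna stood at 588 and 390 CPM. Mitosis genes outside the rule had 5 of 15 lower and none higher, with medians of -1.23 and -1.11, as the cycling condition of the rule would select. The other cells include the cycling cells, and against non-cycling other cells alone the replication medians were 0.68 and 0.86. Mitosis medians against the same cells were 0.29 and 0.50. The word resting is thus relative to the cycling cells, since RNA of both lists was above that of other non-cycling thymocytes in both libraries. In the 26 and 58 members with a cycling sum of 0, the replication medians over all other cells were -0.83 and -0.69. Survival genes had 0 of 8 past 2-fold, with medians of -0.13 and 0.01 (-0.74 and -0.15 against non-cycling cells). Inhibitory receptor genes had 0 of 5, with medians of 0.27 and -0.28 (0.11 and -0.89 against non-cycling cells), and Ctla4 stood at 174 and 250 CPM.

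By the rule for naming, the genes furthest above the other cells were Gm30835, Stx2, Fhod3, Gm43608, Pakap, Tepsin, Fuom, Gm12394, Rsad1, Prss2, 1700016L21Rik, Pcx, Ptgs2, Khdc1c and Slc24a3. Most of these stood on 1 cell: 218 of the 221 Gm30835 UMIs of the Pdcd1 cKO library, 66 of its 67 Pakap UMIs and all 28 Fhod3 UMIs of the Pdcd1fl/fl library each came from 1 member. Fuom, a fucose mutarotase, was spread more widely, with 13 UMIs in 9 cells and 20 in 13 cells, at 29.1 against 8.41 CPM and 19.5 against 7.45. The genes furthest below were Cd8b1, Cd8a and Il2ra of the rule, then Aurkb, Cd74, 4933424L21Rik, H4c3, Tulp3, Gm12718 and Lst1. The order used ratios with 0.5 added to each count, and Prss2 among the highest and Cd74, 4933424L21Rik and Lst1 among the lowest did not pass 2-fold in both libraries. Aurkb, a mitotic kinase, had 3 and 3 UMIs in members at log2 -3.16 (-5.44 to -1.60) and -3.43 (-5.71 to -1.87).

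The 8 higher genes with at least 20 UMIs in each library, named after their values were seen, were Notch3, Dab2ip, Sh3d19, Lrp5, Rag1, Akr1c13, Hmgn3 and Khdc1a. Lrp5 is a Wnt co-receptor and Hmgn3 a nucleosome-binding protein. Khdc1a stood at 58.1 CPM against 21.2 and at 53.6 against 26.5, in 18 and 31 members. Akr1c13, an aldo-keto reductase, was at log2 1.04 and 1.16, in 20 and 33 members. Some rested on few cells: in the Pdcd1 cKO library 1 member gave 17 of 28 Dab2ip UMIs and 1 gave 20 of 42 Lrp5 UMIs. Of the Sh3d19 UMIs, 1 member gave 18 of 46 in the Pdcd1fl/fl library and 1 gave 18 of 54 in the Pdcd1 cKO library. Of the Akr1c13 UMIs, 1 member of each library gave 10 of 36 and 16 of 69. The 5 lower genes were Ube2c, Top2a and Birc5 of the rule and the mitotic genes Cdca3 and Nusap1. Against non-cycling other cells alone, Cdca3 stood higher, at log2 0.89 and 0.46, as did Nusap1 in the Pdcd1 cKO library, at 0.41.

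The members were next set against 4 single classes, which differ in depth and in the number of genes tested, while cycling cells and the remaining CD8-positive and CD8-negative cells were not contrasted. Against the Il2ra-positive CD8-negative cells, of 5012 genes, 8 (0.16%) were at least 2-fold higher in members in both libraries and 5 (0.0998%) lower, with all-gene medians of -0.01 and 0.01. The higher genes, again named after their values were seen, were Il2rb, Chd7, Cdt1, Diaph3, Sidt1, Klf10, Cd2 and Gm2682. Of the Cd2 UMIs of members, 8 of 27 and 42 of 69 lay in the cluster led by Klra7, as did 2 of 11 and 42 of 49 Il2rb UMIs, so both calls rest in part on it. Diaph3 had 109 UMIs in 21 cells of the third cluster described below, whose median mitochondrial share was 10.8%, and 30 in the other members. Cdt1, a replication licensing factor, was at log2 1.00 and 1.04. The lower genes were Il2ra of the rule, Ptpn11, 1700123J17Rik, Khdc1a and A630001G21Rik.

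The genes of immature thymocytes stood below the Il2ra-positive cells but short of 2-fold in 1 or both libraries. Trgc1 was at log2 -0.78 (-1.19 to -0.38) and -0.99 (-1.23 to -0.76), Hes1 at -0.79 (-1.04 to -0.55) and -0.31 (-0.43 to -0.19), Cd24a at -0.83 (-1.15 to -0.52) and -0.26 (-0.41 to -0.11), and Trdc at -0.69 (-1.11 to -0.27) and -0.26 (-0.49 to -0.03). Each of these 4 intervals lay below 0 in both libraries. In the Pdcd1 cKO library this rested in part on the cluster led by Klra7 for Cd24a, Trdc and Hes1. Without it Cd24a stood at 576 CPM against 612 in the Il2ra-positive cells, Trdc at 254 against 266 and Hes1 at 869 against 949. Trgc1 stood at 214 CPM without that cluster, and its ratio was not rerun. Trac was above, at 0.60 (-0.33 to 1.60) and 1.21 (0.80 to 1.61), but this rested on the cluster led by Klra7: without it Trac stood at 45.4 and 32.4 CPM, against 45.6 and 47.8 in the Il2ra-positive cells. Rag1 was near level, at 71.5 against 60.8 CPM and 56.5 against 74.9. The gamma-delta list had 0 of 6 past 2-fold, with medians of -0.82 and -0.32.

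Resting cells with both CD8 and Dntt RNA held 163 and 550 cells. Of 6201 genes, 8 (0.129%) were higher in members and 50 (0.806%) lower. The higher genes, chosen after their values were seen as was Ifi27l2a below, were Sgsm3, Notch3, Lrp5, Sh3d19, Nf2, Spsb1, Mt1 and Hmgn3. Some rested on few members: 1 member of the Pdcd1fl/fl library gave 20 of its 25 Nf2 UMIs. In the Pdcd1 cKO library 1 member gave 13 of 50 Sgsm3 UMIs and 1 gave 20 of 42 Lrp5 UMIs. Notch3 was at log2 1.32 and 1.28, so this Notch receptor was higher in the cells without CD8 RNA. Lower genes included Ccr7, at -1.55 and -3.13, Trac, at -1.54 and -1.69, and Ifi27l2a, at -2.29 and -2.11. The list of selected and mature CD8 T cells had 5 of 16 lower, with medians of -0.87 and -1.16; Cd8a and Cd8b1 are lower here by rule, and the others were Trac, Ccr7 and S1pr1.

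The Dntt-negative Trdc-positive CD8-negative class held 12 and 29 cells, and 2456 genes could be tested, of which 21 (0.855%) were higher in members and 26 (1.06%) lower. Dntt, which separates the classes by rule, led the higher genes. The depth of 42683 UMIs in the Pdcd1fl/fl library limits this contrast, and the gamma-delta list had medians of -0.90 and 1.14 over 4 genes, opposite in sign between libraries. Trdc, by which the comparison class was chosen, belongs to that list, so part of these medians follows from the choice.

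Against Ccr7-positive CD8 cells without Dntt, of 6024 genes, 288 (4.78%) were higher in members and 248 (4.12%) lower. Several lists differed here: gamma-delta genes had 4 of 6 higher with medians of 2.48 and 3.03, V(D)J genes 4 of 9 (Dntt, by rule, with Rag1, Xrcc6 and Hmgb1) with 1.32 and 1.10, DNA replication genes 10 of 16 with 1.37 and 1.42, and selected and mature CD8 genes had 11 of 16 lower with -2.33 and -1.57. Of these 11, Cd8a, Cd8b1 and Ccr7 were lower by the way the classes were defined, and the medians include the genes of the rule. Trdc was at log2 3.11 and 3.10 and Hes1 at 1.90 and 3.41. Khdc1a, at 3.02 and 3.46, and Akr1c13, at 3.16 and 3.28, were among the genes furthest above, a choice made after their values were seen.

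**Figure D3:**
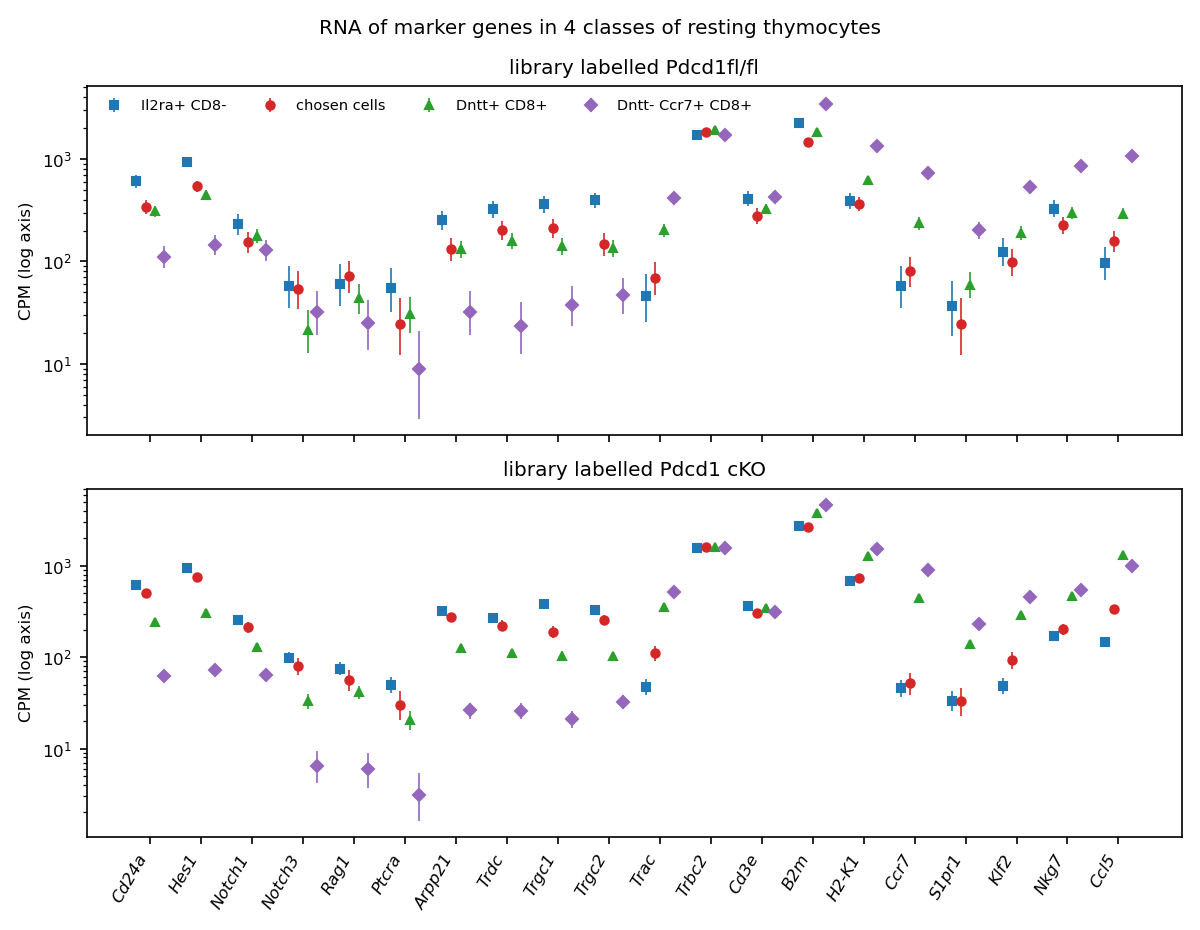
CPM of 20 marker genes, on a log axis, in the members and 3 other resting classes of each thymus library. The members lay near the Il2ra-positive CD8-negative cells for Rag1 and below them for Trdc and Hes1. In the Pdcd1 cKO library the difference in Trdc and Hes1 rested in part on the cluster led by Klra7. The members lay far below the Ccr7-positive CD8 cells for Trac and for Ccr7, which defines that class.

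Shares of cells with a UMI depend on depth, so cells were thinned to 1000 UMIs each. Hes1 then had a UMI in 35.2% and 39.5% of members (61.0% and 71.9% unthinned), against 14.4% and 7.94% of Ccr7-positive CD8 cells, which serve as the background. The median depths before thinning were 3509 and 4814 UMIs in members and 3480 and 5331 in the background cells. Trdc had a UMI in 17.1% and 14.1% of members (42.9% and 47.6% unthinned) against 2.88% and 2.89%, and Cd24a in 27.6% and 32.4% (61.9% and 70.8% unthinned) against 10.8% and 6.49%. These 3 genes were above the background in both libraries.

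Rag1 and Notch3 were rarer per cell. Rag1 had a UMI in 4.76% (1.56 to 10.8) and 4.32% (1.89 to 8.34) of thinned members (21.0% and 18.4% unthinned) against 2.16% and 1.15% in the background, with overlapping intervals at this depth. Notch3 had a UMI in 5.71% and 10.3% (18.1% and 30.3% unthinned) against 5.04% and 0.866%, and was at the background in the Pdcd1fl/fl library. Trgc1 had a UMI in 17.1% and 9.73% (43.8% and 41.1% unthinned) against 1.44% and 2.16%.

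Markers of other cell types gave little sign of non-T cells. Of 11 B cell genes, 2 were tested and 0 passed 2-fold; their sum was 152 and 98.4 CPM in members against 157 and 113 in other cells, led by Ighm with 57 and 76 UMIs, and Ms4a1, Ighd and Igll1 were at 0. Myeloid genes summed to 136 and 114 CPM against 134 and 95.5, with 0 of 2 tested past 2-fold, led by Cst3 with 57 and 93 UMIs, with Csf1r, Itgam, S100a8, S100a9 and Elane at 0. Dendritic genes summed to 333 and 473 CPM against 260 and 352, with 0 of 6 past 2-fold, led by Bst2 with 85 and 288 UMIs, with Siglech and Xcr1 at 0. Ighm, Cst3 and Bst2 were also present in the other thymocytes, short of a 2-fold difference in each library.

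Natural killer and innate lymphoid genes summed to 134 and 323 CPM against 148 and 293, with 1 of 8 tested higher (Zbtb16) and 1 lower (Eomes). The list medians were 0.07 and 0.35 (-0.62 and 0.02 against non-cycling cells), and -0.42 and -0.93 without the cluster led by Klra7. Gata3, which T cells also express, led this list with 25 UMIs in the Pdcd1fl/fl library and Id2 with 157 in the Pdcd1 cKO library. The defining markers Ncr1 and Il1rl1 were at 0. In the cluster led by Klra7, the Pdcd1 cKO library held 14 Klrb1c UMIs in 8 cells, 13 Klre1 in 7 and 7 Fcer1g in 2, against 0, 2 and 0 UMIs in its other members, and the Pdcd1fl/fl library held 0 of each in that cluster. Epithelial and connective tissue genes summed to 51.4 and 133 CPM against 135 and 85.5, with 0 of 3 past 2-fold, led by Pecam1 with 13 and 59 UMIs, with Foxn1, Krt5, Psmb11, Col1a1 and Gas6 at 0. Erythroid genes had 0 of 7 tested and summed to 0 and 20 UMIs, led by Hbb-bs with 0 and 8, with Alas2 at 0.

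The second comparison set the members of the Pdcd1 cKO library against those of the Pdcd1fl/fl library. Of 4157 genes with at least 50 UMIs, 315 (7.58%) were at least 2-fold higher in the Pdcd1 cKO library and 343 (8.25%) lower. Of these 658 genes, 50 of the higher and 126 of the lower were past 2-fold the same way in the other thymus cells of the same libraries. On the same 4157 genes, the other cells had 67 higher and 163 lower.

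The split depended on the scaling. The median gene stood at -0.04 with total UMIs, at 0.08 with totals that leave out mitochondrial, ribosomal protein and Malat1 UMIs (416 higher and 262 lower) and at 0.20 with median-of-ratios scaling (553 higher and 181 lower). A difference near 2-fold in this comparison is therefore a statement about the scaling as well. With at least 20 UMIs in the members of each library, 102 higher and 336 lower genes were left of 3205, a filter that falls harder on genes low in the shallower Pdcd1fl/fl library.

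DNA replication genes had 8 of 17 tested members at least 2-fold lower and none higher in the Pdcd1 cKO library, with a median of -0.76. Tyms, which makes thymidylate, stood at 217 and 74.1 CPM, log2 -1.55, Rrm1, a ribonucleotide reductase subunit, at 139 and 46.8 CPM, and Mcm5, of the replicative helicase, at 170 and 78.0 CPM, log2 -1.12 (-1.59 to -0.65). All 3 were below 0 in the other cells too, at -1.06, -0.75 and -0.66. The median was -0.64 with the total without mitochondrial, ribosomal and Malat1 UMIs and -0.53 with median-of-ratios scaling, with 7 and 5 genes lower, and -0.72 with the mean of per-cell CPM, with 4 lower. In members with a cycling sum of 0 it was -0.45, with 6 lower and 1 higher, and without the cluster led by Klra7 it was -0.86, with 7 lower.

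The part of the cycling sums, which the rule used, in these values was not tested beyond the members with a sum of 0. Mitosis genes had 1 of 3 tested lower, Ccnb2, at log2 -1.36 (-2.01 to -0.72).

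T lineage transcription factors had 4 of 16 higher and none lower, with a median of 0.45: Sox4, Runx1, Id2 and Runx3. Sox4 stood at 154 and 368 CPM, log2 1.26 (0.88 to 1.65), against 0.41 in the other cells, and Runx1 at 110 and 261 CPM, 1.25 (0.81 to 1.72), against 0.12. Id2, an inhibitor of E proteins, stood at 49.2 and 153 CPM, 1.64 (0.99 to 2.35), against 1.28, and Runx3 at 1.19 against 1.27. Tcf7 and Lef1, the TCF family factors, stood lower at -0.62 and -0.64. Without the 34 cells, Sox4 was at 1.32, Runx1 at 1.39 and Id2 at 1.42.

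Selected and mature CD8 genes had 4 of 12 tested higher and none lower, with a median of 0.88: the class I genes H2-K1 and H2-D1, Ly6c2 and Runx3. H2-K1 stood at 362 and 741 CPM, log2 1.03 (0.79 to 1.29), against 0.93 in other cells, and H2-D1 at 342 and 751 CPM, 1.14 (0.88 to 1.40), against 1.04. B2m, their light chain, was at 0.85 and 0.89. Without the 34 cells H2-K1 was at 0.86, short of 2-fold. The class I difference was thus of like size in members and in the rest of the libraries. Ly6c2 was another matter: it stood at 1.40 (0.88 to 1.96) with the 34 cells and at -1.86 (-3.15 to -0.65) without them, and the list median was 0.38 without them, with 2 higher and 1 lower.

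Other lists were mixed. V(D)J genes had a median of -0.19 over 6 genes, with Dclre1c, the Artemis nuclease, at log2 1.27 and Hmgb1 at -1.11. The Hmgb1 difference was not particular to members, whose log2 over other cells was -0.09 and -0.26 in the 2 libraries. Pre-TCR and Notch genes had 0 of 6 past 2-fold with a median of 0.48, constant region genes 0 of 7 with 0.14, gamma-delta genes 0 of 5 with 0.14, and CD3 and signaling genes 0 of 13 with 0.12. The DN3 list had 0 of 8 past 2-fold with a median of 0.08 and the double-positive list 1 of 8, Arpp21, with 0.56. Survival genes had 1 of 5 higher, Bcl2l11, the death promoter Bim, at 1.57 (0.94 to 2.27) against 0.68 in other cells, and inhibitory receptors 0 of 2 with a median of -0.08. No early progenitor gene reached 50 UMIs.

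Among effector genes, Ccl5 was higher at log2 1.09 and Gzma lower at -1.36 (-1.61 to -1.11), over 4 tested genes with a median of 0.40. The same genes stood at 1.57 and -1.26 in the other cells. Gzma thus differed between the libraries in members and in the rest alike, while Ccl5 fell short of 2-fold at 0.50 without the 34 cells, where the list median was -0.85. Mitochondrially encoded genes had 4 of 12 higher with a median of 0.80, mt-Nd3 at 630 and 2851 CPM, and the members' median mitochondrial share was 4.07% and 5.21%. Within each library mt-Nd3 differed little between members and other cells, at log2 0.07 and 0.25. Its difference between libraries was thus not particular to the members. Ribosomal protein genes had 2 higher and 1 lower of 78 with a median of 0.24. Of other cell types, the NK and innate lymphoid list had 1 of 2 tested genes higher (Id2) and the epithelial and connective list 1 of 2 (Epcam), and the B cell, myeloid and dendritic lists had 0.

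**Figure D4:**
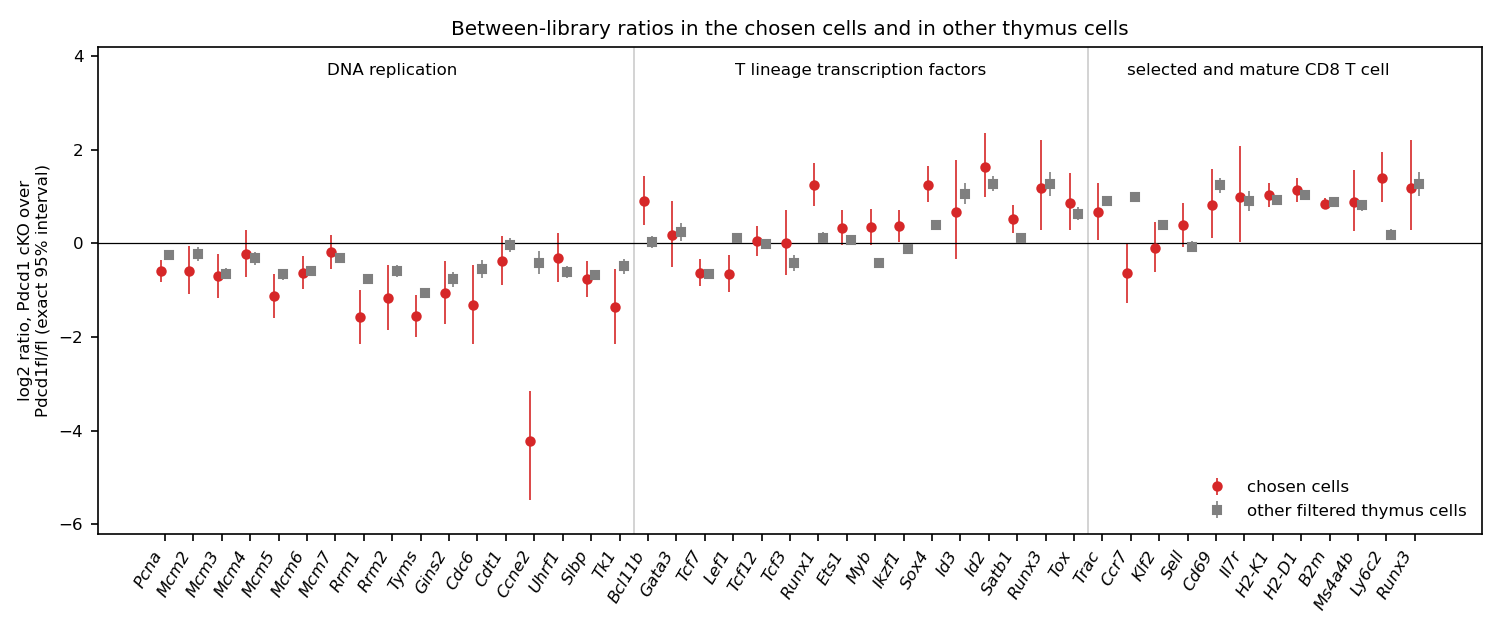
Log2 ratio of the Pdcd1 cKO over the Pdcd1fl/fl library for every tested gene of 3 lists, in members and in the other filtered thymus cells. In members, the DNA replication list has a median of -0.76, T lineage transcription factors 0.45 and selected and mature CD8 genes 0.88, with total UMI scaling.

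By the rule for naming, the genes furthest above in the Pdcd1 cKO library were Mt2, Xcl1, Gm30835, Pakap, Gm50021, Tnfrsf1b, Lepr, Slc15a2, Rgs1 and Klra9. Mt2, a metallothionein, had 0 UMIs against 65 in 32 members, at least 3.24 on the log2 scale against a floor of 3 counts. Gm50021 stood at 35.8 and 713 CPM, log2 4.32 (3.61 to 5.13), and at 3.26 in the other cells. Slc15a2, a peptide transporter, stood at 31.3 and 346 CPM, 3.47 (2.70 to 4.35), against 2.89, and Rgs1, a regulator of G protein signaling, at 3.04 against 1.94. Gm30835 and Pakap were the single-cell genes named above, and Xcl1 (1 and 122 UMIs, log2 5.73, 3.23 to 11.05) and Klra9 (6 and 92 UMIs, 2.74, 1.56 to 4.22) lay in the small cluster, which held 111 of the 122 and 91 of the 92.

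The genes furthest below included Ccne2, Gm49313, Gm38825, Bmerb1, Fgd1, Abcb8, Rad51b, Aimp2 and Pibf1. Ccne2, a G1 cyclin, stood at 145 and 7.80 CPM, log2 -4.22, but 48 of its 65 UMIs in the Pdcd1fl/fl library came from 1 member, and it was at -0.41 in the other cells. Bmerb1 stood at 177 and 24.4 CPM in 48 and 21 members, -2.86 (-3.57 to -2.19), with -2.58 in the other cells. Bmerb1, Gm50021 and Slc15a2 thus differed between the libraries in members and non-members alike.

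The members also varied among themselves. Clusters came from all genes, so their leading genes are descriptions. The first cluster, 94 cells led by Cenpm, Bmerb1, Zfp423, Tmem107 and Mthfd2, held 66.7% of the members of the Pdcd1fl/fl library and 13.0% of those of the Pdcd1 cKO library. Its cells had Pcna at 758 CPM against 298 in the other members and Gzma at 723 against 180. Cluster membership and library could not be told apart here, since Bmerb1 and Zfp423 were also lower in the members of the Pdcd1 cKO library.

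The second cluster, 88 cells led by Gm5111, Isg15, Sytl1, Gm4632 and Myl10, held 15.2% and 38.9% of members. It had the most RNA of the markers, with Dntt at 979 CPM, Cd24a at 733 and Rag1 at 95.4, and Dntt reached at least 3 UMIs in 63 of its 88 cells. The third cluster, 74 cells led by Diaph3, Dip2c, Ppm1l, Stx16 and Cep350, held 9.52% and 34.6% of members. Its median mitochondrial share was 10.8%, against 3.73%, 4.94% and 3.39% in the others, and it had Notch1 at 401 CPM and Kit at 55.9 CPM. RNA quality and cell state were not told apart in it.

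These results have limits. Each genotype is 1 library, so no difference between the libraries can be credited to Pdcd1, and the Pdcd1 RNA went against the labels. The rule reads absence from 0 UMIs at median depths of 3509 and 4814, so some members may express Il2ra or CD8 below detection. Dntt UMIs are also common in mature CD8 cells, and a cluster of 34 members had high Trac and low Trdc and Cd24a RNA. In these libraries, surface CD4, CD8, CD25 and CD44 were not measured, and neither were protein or joined receptor chains. The kit enriches CD8 T cells, so the members are what passed that enrichment.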

How the data were processed

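The counts were made by the authors and used as deposited: PIPseq reads (kit version 3) were aligned to GRCm39 and collapsed to UMI counts with the PIPseq pipeline 3.2, and the deposited barcodes number 16651 in 6 libraries. The authors then worked in Seurat 4.3.0. Here the counts were read with Python 3.11.15, numpy 2.4.6, pandas 2.3.3, scipy 1.17.1, scanpy 1.11.5, anndata 0.12.19, leidenalg 0.10.2, scikit-learn 1.9.0 and matplotlib 3.10.9. Gene coordinates came from GENCODE vM39 on GRCm39, which matched 31681 of 32227 genes.

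Filters were 500 genes, 1000 UMIs and 20% mitochondrial UMIs. The members and gene lists were chosen with earlier results of these data known. CPM are summed UMIs scaled to the total of the group. Intervals are exact 95% (Poisson, conditional binomial, Clopper-Pearson) and cover counting error only. A gene was tested with at least 100 UMIs (members against others) or 50 (between libraries) and called when past 2-fold, in both libraries for the first. A count of 0 was given a floor of 3 counts. Genes named were those of the rule and the lists, the 15 highest and 10 lowest against other cells (by the smaller of the 2 library ratios, with 0.5 added to each count), the 10 highest and 10 lowest between libraries and the 5 leading genes of each cluster. Genes named beyond that are said to be chosen after their values were seen.

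Clusters used 2000 variable genes, 20 components, 15 neighbours and Leiden at resolution 0.5, giving 4 clusters, with 3 at 0.3 and 5 at 0.8. Thinning drew 1000 UMIs per cell. Scrublet called 12 of 1067 and 12 of 2635 cells doublets, of which 1 and 0 were members. Alternatives covered scaling (totals without mitochondrial, Rpl, Rps and Malat1 UMIs, median of ratios, mean of per-cell CPM), thresholds for Dntt, CD8, cycling, depth, mitochondrial share and minimum UMIs, non-cycling other cells, and thinning. Others were added after seeing the data: at least 20 UMIs per library, members without the cluster led by Klra7, without doublets, with a cycling sum of 0, and without the highest member of each gene. The meaning of a reversed result was narrowed to genes past 2-fold in both libraries, and the handling of 0 counts was corrected, after values were seen.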

Additional observations from a re-analysis of the deposited data

Results flagged for a closer look

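Syt1, a synaptic vesicle protein gene, had a between-library log2 of 2.02 (0.81 to 3.53) in members, on 6 and 56 UMIs, and of -1.22 (-1.76 to -0.67) in the other cells, on 52 and 68 UMIs. Of the 56 member UMIs, 42 came from 1 cell. The gene was picked after its values were seen, and the difference was not tested.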

How the results depend on the processing

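The share of members, 9.84% and 7.02%, became 6.84% and 4.59% with Dntt at 2 or more UMIs, 16.8% and 10.1% with CD8 at 1 or fewer, and 4.97% and 4.74% with a cycling sum under 2; with thinning and a cycling threshold of 1 together it was 9.37% and 9.34%, and without the cluster led by Klra7 it was 6.07% in the Pdcd1 cKO library. These follow from the rule. Genes higher in members, 57, became 12 with at least 300 UMIs and 31 with CD8 at 1 or fewer. They became 30 against non-cycling cells and 8 with at least 20 UMIs per library. The 31 held 20 of the 57, and the 30, from 8935 genes tested, held 10 of the 57. Genes lower, 107, became 61 with at least 300 UMIs, 180 with Dntt at 2 or more and 188 against non-cycling cells. They became 5 with at least 20 UMIs per library (a filter that removes genes low in members by construction) and 174 without that cluster. Many of these were other genes: the 180, 188 and 174 held 66, 32 and 90 of the 107. Between libraries, 315 higher and 343 lower became 553 and 181 with median of ratios and 34 and 71 with at least 300 UMIs. With a cycling sum of 0 they became 104 and 126 of 1111 tested (632 and 523 on the same 4157 genes). The 104 and 126 held 47 of the 315 and 73 of the 343. The higher became 102 with at least 20 UMIs per library. Higher minimums and fewer members test fewer genes by construction. Reversed were Dab2ip in the Pdcd1 cKO library (-0.26 with Dntt at 2 or more), Cdca3 (0.89 and 0.46) and Nusap1 in the Pdcd1 cKO library (0.41) against non-cycling cells, and Ly6c2 between libraries (-1.86 without that cluster); the cause was not tested. Genes not past 2-fold the same way in both libraries also changed sign in the Pdcd1 cKO library: Tyms (0.79 against non-cycling cells), Xcl1 (-0.64 with Dntt at 2 or more, -1.80 without that cluster) and Klra9 (-0.26 with Dntt at 2 or more, and lower still without that cluster). No paired analysis was possible because the libraries came from different mice.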
